A study of Homo sapiens with 6 samples.

Results

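The 50 genes described here encode nucleolar proteins and ribosome assembly factors. They were chosen by name: the proteins of the box C/D and box H/ACA small nucleolar ribonucleoproteins (snoRNPs), abundant nucleolar proteins, factors that process, modify and export precursors of ribosomal RNA (rRNA), and CNBP, a nucleic acid-binding protein. The list was drawn up with earlier results of these data known. What part that choice has in the extremes and the split of calls below was not tested. For a gene with several transcripts the one with the highest total count was used, and all 50 were found among the 23180 gene symbols of the count table. All 50 also passed the filter on low counts, which left 13877 genes to be tested.

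RNA-Seq was performed in A549 cells, an established line of human lung adenocarcinoma, labelled as wild type and at passage 11 in all 6 samples. At 3 days before harvest, per the study's methods, 3 biological replicates were transfected with siControl, a control small interfering RNA (siRNA), and 3 with siKMT9α#1, an siRNA against KMT9α, so that both groups carried an siRNA and the transfection reagent. KMT9 is a histone methyltransferase that adds a single methyl group to lysine 12 of histone H4 and consists of KMT9α, encoded by N6AMT1, and KMT9β, encoded by TRMT112. The comparison asked which of the 50 genes changed in abundance upon knock-down of KMT9α, and 1 siRNA, 1 cell line and 1 time point bound what it can show.

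Ribosome biogenesis begins in the nucleolus, where RNA polymerase I transcribes a long precursor that holds the 18S, 5.8S and 28S rRNAs. Box C/D snoRNPs guide methylation of its riboses and box H/ACA snoRNPs guide the conversion of uridine to pseudouridine. The small subunit (SSU) processome folds and cleaves the 18S part on the way to the 40S subunit, other factors assemble the 60S subunit, and both are exported to the cytoplasm for final maturation. Many of these genes are known to be bound by MYC, which with its partner MAX recognises the E-box CACGTG, and growing tumour cells make the products in large amounts.

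Stretches of promoter are shown for the 2 members that changed most and for 6 members that hold an E-box near the start site and between them rose, fell or were not called. They are RefSeq sequences of the GRCh38.p14 build, 80 bases each, from 50 bases before the annotated transcription start site to 30 bases from it onward, read 5′ to 3′ on the strand of the gene, with any E-box in capitals.
NCL (chr2:231464455-231464534, minus strand): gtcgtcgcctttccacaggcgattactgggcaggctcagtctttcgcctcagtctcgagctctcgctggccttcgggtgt
CNBP (chr3:129183867-129183946, minus strand): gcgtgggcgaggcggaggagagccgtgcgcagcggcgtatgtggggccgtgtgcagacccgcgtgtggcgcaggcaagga
FBL (chr19:39846350-39846429, minus strand): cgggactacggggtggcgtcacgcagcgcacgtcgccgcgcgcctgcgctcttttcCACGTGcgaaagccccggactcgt
NOP14 (chr4:2963377-2963456, minus strand): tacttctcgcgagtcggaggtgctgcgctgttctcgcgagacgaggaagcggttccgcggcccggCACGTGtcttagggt
NOP10 (chr15:34343107-34343186, minus strand): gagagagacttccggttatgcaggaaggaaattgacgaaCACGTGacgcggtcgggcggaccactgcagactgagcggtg
NAT10 (chr11:34105579-34105658, plus strand): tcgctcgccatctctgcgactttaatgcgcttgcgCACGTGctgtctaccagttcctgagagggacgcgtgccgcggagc
WDR43 (chr2:28894617-28894696, plus strand): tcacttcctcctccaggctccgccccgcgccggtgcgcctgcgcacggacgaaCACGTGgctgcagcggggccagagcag
RRP9 (chr3:51941875-51941954, minus strand): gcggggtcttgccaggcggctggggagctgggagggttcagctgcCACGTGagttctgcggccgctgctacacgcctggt
NCL and CNBP held no E-box in these windows, nor in the 300 bases of the whole promoter entry. FBL, NOP14, NOP10 and NAT10 rose, RRP9 fell and WDR43 was not called, so that members with an E-box at the start site were found in each class.

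The target was reduced, and the libraries differed in depth, with siKMT9α#1 replicates 1 and 2 the shallowest and replicate 3 the deepest. The 6 libraries held 13740101 to 19832399 counts over 1 transcript per gene, and the biological coefficient of variation (the spread between replicates beyond counting error) was 4.47%. Replicates were not equally alike. The chi-square per gene, which sets the difference of 2 libraries against counting error, was 1.81 for siControl replicates 2 and 3. It was 1.36 for siKMT9α#1 replicates 1 and 2, 4.06 to 5.28 for other pairs within a group, and 107 to 142 between groups. N6AMT1, the targeted gene, measured 10.2, 10.9 and 11.4 CPM (counts scaled to a common library total of 1e+06) in the siControl samples and 2.87, 3.22 and 3.35 CPM in the siKMT9α#1 samples, with a log2 fold change of −1.77 ± 0.12 (SE). TRMT112 also fell, with a log2 fold change of −0.38 ± 0.07 (SE), from 161, 182 and 179 CPM to 140.3, 143 and 118 CPM. The summed level of 6 epithelial markers was 3215 to 3577 CPM in the siControl samples and 1726 to 1818 CPM in the siKMT9α#1 samples, nearly all of it from KRT8 and KRT18. Of the 6 markers 4 were lower, CLDN4 was not called, and CDH1 was higher, with 4.25, 2.35 and 3.54 CPM and 8.31, 7.82 and 9.68 CPM (log2 fold change 1.34 ± 0.16 (SE, adjusted p = 3.11e-07)). None of the 6 was under 1 CPM in every sample, although EPCAM reached only 0.438 to 4.25 CPM. Of the fibroblast markers, 4 of 6 were under 1 CPM in every sample and COL1A2 was at 0, and the summed level ran from 6.92 to 8.71 CPM and from 3.22 to 3.92 CPM. Of the leukocyte markers, 4 of 6 were under 1 CPM in every sample and CD3E was at 0, with sums of 81.4 to 88.3 CPM and 28.9 to 30.5 CPM that came mostly from CD68. All 5 endothelial markers were under 1 CPM in every sample. The part of these marker shifts in the values below was not tested.

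The 50 genes did not move as 1 block. In the siKMT9α#1 samples 24 members (48%) were higher, 15 (30%) were lower and 11 were not called, at an adjusted p below 0.05. Here and below, adjusted p-values come from the quasi-likelihood test of edgeR, corrected by the Benjamini-Hochberg procedure across the 13877 genes. Of all 13877 genes tested, 37.1% were higher and 38.5% were lower by the same rule, so the members were called about as often as other genes, with more of the calls upward. The median log2 fold change of the members was 0.09, against −0.01 over all genes tested. Scaling by library size alone, which moved the median of all genes by −0.11, took the members' median to −0.02. It took the split of their calls to 15 higher and 19 lower. By the same scaling 4359 of all 13877 genes were higher and 6212 were lower, with a median of −0.12. Upper-quartile scaling gave the members a split of 21 and 19, and the shares of all genes under it are not given here. In bulk samples fewer cells of a type and less RNA per cell cannot be told apart.

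The median absolute log2 fold change was 0.29 for the members, 0.27 for 114 other genes of the pathway and 0.47 over all genes tested. The members were also more abundant, with a median siControl level of 120.3 CPM against 23.9 CPM, and their median SE was 0.05 against 0.08, and the part of level in the smaller changes was not tested. Only NCL and NIP7 rose by more than 2-fold and only CNBP fell by more than that. By the study's own threshold, an unadjusted p below 1e-08 with an absolute log2 fold change above 0.26, 6 members (12%) were higher, namely NCL, NIP7, NOP14, NOP56, FBL and DDX47, against 13.5% of all genes. By that threshold 4 members (8%) were lower, namely CNBP, RRP9, RRP12 and WDR75, against 10.7% of all genes. The p-values are those of the fit used here, which passed 1878 genes upward and 1479 downward. The study named edgeR but not the test, and reported more differentially expressed genes. These counts of 6 and 4 depended on the method. A likelihood-ratio test or no filter on low counts gave 12 and 10, and offsets for GC content and length (per-sample corrections for how counts depend on a transcript's GC content and length) gave 14 and 5. Blocking on replicate numbers, 5 passed upward and CNBP alone passed downward. The shares of 13.5% and 10.7% of all genes belong to the fit used in the text. Shares of all genes under these other settings are not given here. The 3 siKMT9α#1 samples all lay above the 3 siControl samples for 26 members (52%) and all lay below them for 17 (34%), against 37.6% and 39.4% of all genes. These 43 members were the 39 that were called together with UTP20, DDX21, DDX52 and GNL3, whose groups stood apart by less than the test required.

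**Figure D1:**
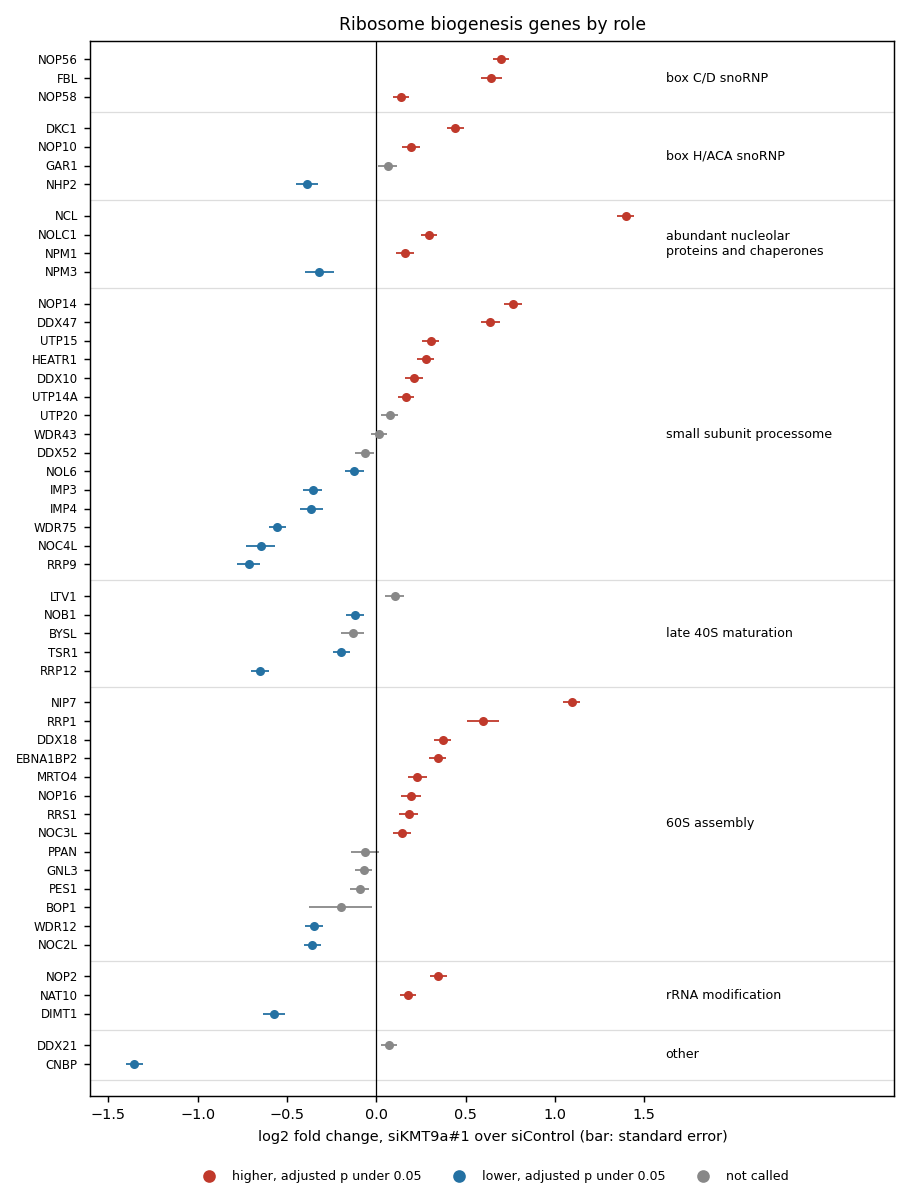
Log2 fold changes of the 50 genes on the horizontal axis (siKMT9α#1 over siControl, bars are standard errors), with 1 gene per line and genes grouped by role, in red where higher, blue where lower and grey where not called. NCL at 1.40 and CNBP at −1.35 lie farthest from 0, and the 3 box C/D members lie to the right. No late 40S factor, of 5, was called higher, beside 37.1% of all genes tested.

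**Figure D2:**
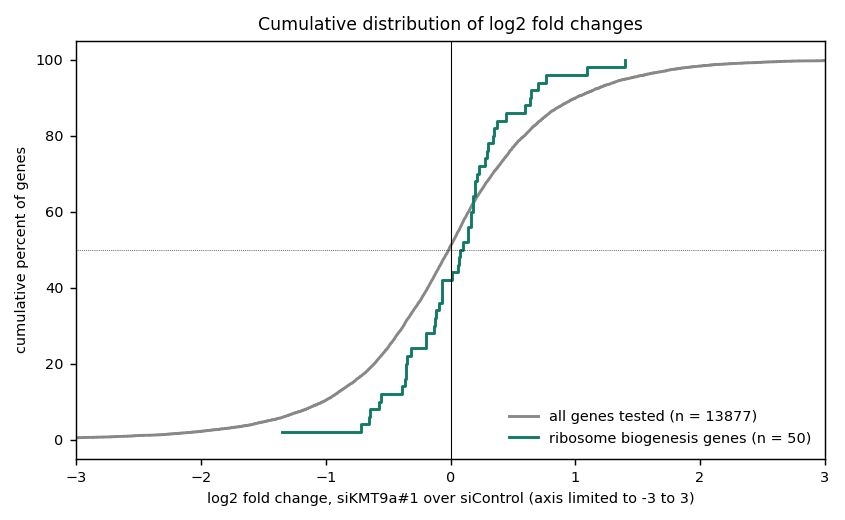
Cumulative percent of genes (vertical axis) against the log2 fold change (horizontal axis, limited to −3 to 3) for the 13877 genes tested and for the 50 members. The members' curve is steeper, with a median absolute change of 0.29 against 0.47, and crosses 50 percent at 0.09.

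The 3 members that belong to the core of the box C/D snoRNPs were higher, as were 37.1% of all genes tested, and their median log2 fold change was 0.64. SNU13, a further core protein of the particle that is not among the 50, was lower at −1.45 ± 0.06 (adjusted p = 4.47e-14). FBL (fibrillarin, the enzyme that methylates rRNA riboses, chr19:40325093-40337054 in hg19) measured 267, 281 and 292 CPM in the siControl samples and 466, 449 and 399 CPM in the siKMT9α#1 samples. The lowest siKMT9α#1 sample was well above the highest siControl sample, and the log2 fold change was 0.64 ± 0.06 (SE, adjusted p = 4.72e-09). NOP56 (chr20:2633178-2639039), a scaffold of the same particle, went from 261, 257 and 271 CPM to 421, 422 and 437 CPM, a log2 fold change of 0.70 ± 0.05 (SE, adjusted p = 5.83e-11). NOP58, which pairs with NOP56 in that scaffold, moved far less. It measured 347, 324 and 344 CPM and then 371, 371 and 376 CPM, without overlap, and its log2 fold change of 0.14 ± 0.05 (SE, adjusted p = 0.0114) lost its call when siControl replicate 2 was left out (adjusted p = 0.0610) and under scaling by library size alone (adjusted p = 0.518) or upper quartile (adjusted p = 0.138). With offsets for GC content and length the value of NOP58 was larger, at 0.30 (adjusted p = 2.21e-07).

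The box H/ACA proteins moved in different directions. DKC1 (dyskerin, the pseudouridine synthase itself) measured 447, 452 and 435 CPM in the siControl samples and 623, 617 and 573 CPM in the siKMT9α#1 samples, and rose by a log2 fold change of 0.44 ± 0.05 (SE, adjusted p = 9.83e-08). NHP2, an RNA-binding subunit of the same particle, measured 115, 132 and 129 CPM and 103, 96.6 and 88.3 CPM, and fell by 0.39 on the log2 scale (SE 0.06, adjusted p = 1.31e-05). The 2 groups of NHP2 values did not overlap. With offsets for GC content and length the log2 fold change of NHP2 shrank to −0.13 (adjusted p = 0.0194). NOP10, a small structural subunit, had a log2 fold change of 0.20 ± 0.05 (SE, adjusted p = 0.00138). Scaling by library size alone took it to 0.09 (adjusted p = 0.104), and offsets for GC content and length to 0.27 (adjusted p = 1.16e-06). GAR1, a glycine- and arginine-rich subunit, was not called at 0.06 ± 0.05 (SE, adjusted p = 0.285), and its sign turned to −0.04 under library size alone, while offsets for GC content and length gave 0.27 and a call.

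NCL (nucleolin, an abundant RNA-binding protein of the nucleolus, chr2:232319459-232329205) rose most of the 50. Its values were 477, 453 and 468 CPM in the siControl samples and 1217, 1219 and 1246 CPM in the siKMT9α#1 samples. The groups were tight and far apart, with a fold change of 2.63 and a log2 fold change of 1.40 ± 0.05 (SE, adjusted p = 2.91e-15). NPM1 (nucleophosmin, a histone and ribosome assembly chaperone) was the member with the highest level per length and measured 1082, 1107 and 1099 CPM and 1243, 1276 and 1157 CPM. Its log2 fold change of 0.16 ± 0.05 (SE, adjusted p = 0.00664) was small, and the call was lost without siKMT9α#1 replicate 2 (adjusted p = 0.0523), under library size alone (adjusted p = 0.317) and under upper-quartile scaling (adjusted p = 0.0773). With offsets for GC content and length the value of NPM1 was larger, at 0.42 (adjusted p = 5.78e-10). NOLC1, a nucleolar phosphoprotein that accompanies snoRNPs, measured 422, 418 and 434 CPM and 519.7, 528 and 516 CPM, a log2 fold change of 0.30 ± 0.04 (SE, adjusted p = 7.69e-06). NPM3, a relative of NPM1, went the other way, from 63.1, 77.1 and 77.5 CPM to 62.1, 62.0 and 51.2 CPM. The highest siKMT9α#1 value of NPM3 lay just under the lowest siControl value, and its log2 fold change of −0.32 ± 0.08 (SE, adjusted p = 0.00134) shrank to −0.07 with offsets for GC content and length (adjusted p = 0.280).

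Among the 15 members of the SSU processome, 6 were higher, 6 were lower and 3 were not called, beside 37.1% higher and 38.5% lower over all genes. The median log2 fold change of the 15 was 0.01, which became −0.09 under library size alone and −0.06 with GC and length offsets. Over all genes these 2 medians were −0.12 and 0.02. NOP14 (chr4:2939664-2965118), which binds the precursor of the small subunit, rose most of the 15. It measured 67.5, 71.1 and 74.0 CPM in the siControl samples and 118, 120.3 and 123 CPM in the siKMT9α#1 samples, a log2 fold change of 0.77 ± 0.05 (SE, adjusted p = 5.08e-11). Its span overlaps NOP14-AS1 on the other strand, which had means of 8.95 CPM and 14.7 CPM, and the strand setting of the counting was not given in the sources used here, so reads of the overlap cannot be assigned. DDX47 (chr12:12966280-12982915), an RNA helicase, measured 145, 141 and 133 CPM and 211, 229.6 and 212 CPM and rose by a log2 fold change of 0.64 ± 0.05 (SE, adjusted p = 1.12e-09). Smaller rises were seen for UTP15 and HEATR1, both needed for transcription and processing of the precursor, at 0.30 ± 0.05 (SE, adjusted p = 1.64e-05) and 0.28 ± 0.05 (SE, adjusted p = 4.29e-05). HEATR1 overlaps LGALS8 on the other strand, and its value fell to −0.02 with GC and length offsets (adjusted p = 0.622). The helicase DDX10 and the processing factor UTP14A completed the higher members of this group, at 0.21 ± 0.05 and 0.17 ± 0.05. Both lost their calls under library size alone (adjusted p = 0.0562 and 0.241) and kept them with GC and length offsets (0.25 and 0.19).

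The 6 lower members of the processome fell by 0.12 to 0.72 on the log2 scale. RRP9 (chr3:51967446-51975922), a protein component of the U3 snoRNP, fell from 62.0, 63.7 and 66.8 CPM to 39.6, 42.4 and 35.8 CPM. The groups were separated by a wide gap and the log2 fold change was −0.72 ± 0.06 (SE, adjusted p = 5.01e-09). WDR75 (chr2:190306159-190340264), a subunit of the complex that couples transcription and processing, fell from 150.1, 144 and 149 CPM to 99.3, 99.8 and 103 CPM, a log2 fold change of −0.55 ± 0.05 (SE, adjusted p = 2.20e-09). NOC4L, the partner of NOP14, measured 32.8, 37.5 and 35.5 CPM and 25.5, 22.4 and 20.2 CPM and changed by −0.65 ± 0.08 (SE, adjusted p = 6.19e-07), in the opposite direction to its partner. IMP3 and IMP4, both components of the U3 snoRNP, had nearly equal log2 fold changes of −0.36 ± 0.06 (SE, adjusted p = 1.04e-05) and −0.36 ± 0.06 (SE, adjusted p = 4.64e-05). Both values shrank with GC and length offsets, to −0.10 (adjusted p = 0.0739) for IMP3 and −0.06 (adjusted p = 0.313) for IMP4. NOL6, a further processome protein, was at the edge of the test at −0.12 ± 0.05 (SE, adjusted p = 0.0369), and the call was lost when any 1 of 5 of the 6 samples was left out (adjusted p up to 0.216), under DESeq2 (adjusted p = 0.103), relative log expression scaling (adjusted p = 0.0598) and no filter (adjusted p = 0.0754). Of the 3 that were not called, UTP20, a very large scaffold protein, had a log2 fold change of 0.07 ± 0.05 that turned to −0.25 with GC and length offsets (adjusted p = 1.29e-05). WDR43, a subunit of the same complex as WDR75, measured 261, 261 and 256 CPM and 260.4, 257 and 268 CPM and had a log2 fold change of 0.01 ± 0.04. The helicase DDX52 was at −0.07 ± 0.05, and was called lower under library size alone (adjusted p = 0.00510) and upper-quartile scaling (adjusted p = 0.0312).

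Of the 5 factors of late 40S maturation 0 were higher, 3 were lower and 2 were not called, beside 37.1% higher and 38.5% lower over all genes tested. With GC and length offsets 1 of the 5 was higher and 2 were lower, beside 5430 higher, 5115 lower and a median of 0.02 over all genes. RRP12 (chr10:99116458-99161127), a factor of subunit maturation and export, fell most. It measured 256, 259 and 268 CPM in the siControl samples and 169.6, 174 and 155 CPM in the siKMT9α#1 samples, with a log2 fold change of −0.65 ± 0.05 (SE, adjusted p = 6.52e-10). TSR1, which occupies the small subunit before translation, measured 203, 203 and 202 CPM and 179, 183 and 169 CPM, a log2 fold change of −0.20 ± 0.05 (SE, adjusted p = 9.65e-04), and its span overlaps SRR on the other strand. NOB1, the nuclease that makes the end of the 18S rRNA, fell slightly at −0.12 ± 0.05 (SE, adjusted p = 0.0415). Its call was lost when any 1 of 5 of the 6 samples was left out (adjusted p up to 0.342), under DESeq2 (adjusted p = 0.118), relative log expression scaling (adjusted p = 0.0658) and no filter (adjusted p = 0.0937), and its sign turned to 0.07 with GC and length offsets. BYSL, a pre-40S assembly factor, was not called at −0.13 ± 0.06 (adjusted p = 0.0638), and was called without siKMT9α#1 replicate 1 at −0.18 (adjusted p = 0.0239). BYSL was also called lower under library size alone (−0.24, adjusted p = 0.00227), upper-quartile scaling (−0.19, adjusted p = 0.00939) and a minimum of 10 counts in every sample (−0.15, adjusted p = 0.0438), while GC and length offsets turned its sign to 0.05. LTV1, a pre-40S export factor, was not called at 0.10 ± 0.05 (adjusted p = 0.0931) and was called without siControl replicate 1 at 0.14 (adjusted p = 0.0362) and with GC and length offsets at 0.27 (adjusted p = 2.38e-05). The median log2 fold change of the 5 was −0.13 and turned to 0.05 with GC and length offsets.

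Of the 14 factors of 60S assembly 8 were higher, 2 were lower and 4 were not called, with a median log2 fold change of 0.16, beside 37.1% higher and 38.5% lower over all genes. Library size alone gave 5 higher and 4 lower and a median of 0.06, beside 4359 higher, 6212 lower and a median of −0.12 over all 13877 genes. NIP7 (chr16:69373415-69377013), a factor of rRNA processing, had 73.3, 73.5 and 74.1 CPM in the siControl samples and 162, 161 and 149 CPM in the siKMT9α#1 samples. The siControl values were within 1 CPM of each other, and the rise came to a fold change of 2.13 and a log2 fold change of 1.09 ± 0.05 (SE, adjusted p = 2.34e-13). NIP7 overlaps COG8 on the other strand, which had means of 43.2 CPM and 31.4 CPM, opposite in direction to NIP7. RRP1, an early-acting nucleolar factor, measured 17.3, 16.1 and 20.2 CPM and 27.5, 29.5 and 24.7 CPM, with a log2 fold change of 0.60 ± 0.09 (SE, adjusted p = 5.93e-06). DDX18, a helicase, measured 192, 175 and 182 CPM and 239, 240.4 and 232 CPM, with a log2 fold change of 0.37 ± 0.05 (SE, adjusted p = 1.01e-06). EBNA1BP2, a pre-60S factor, measured 233, 237 and 237 CPM and 314, 299.6 and 285 CPM and had a log2 fold change of 0.34 ± 0.05 (SE, adjusted p = 2.48e-06). In all of these the groups stood apart. The other 4 that rose were MRTO4 at 0.23 ± 0.05, NOP16 at 0.19 ± 0.06, RRS1 at 0.18 ± 0.05 and NOC3L at 0.14 ± 0.05. Under library size alone NOP16, RRS1 and NOC3L lost their calls (adjusted p = 0.165, 0.197 and 0.505), and with GC and length offsets they kept them (0.39, 0.40 and 0.19).

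NOC2L, the nucleolar partner of NOC3L, fell while NOC3L rose. It measured 106, 110.2 and 112 CPM and 87.7, 85.5 and 83.0 CPM, a log2 fold change of −0.36 ± 0.05 (SE, adjusted p = 1.94e-06), and it overlaps SAMD11 on the other strand. NOC3L measured 66.2, 69.2 and 68.0 CPM and 76.3, 74.0 and 74.3 CPM. The PES1, BOP1 and WDR12 proteins form 1 complex that acts on the 60S precursor, and of these only WDR12 was called. WDR12 fell from 81.8, 79.7 and 78.2 CPM to 63.3, 62.7 and 62.4 CPM, a log2 fold change of −0.35 ± 0.05 (SE, adjusted p = 3.47e-06). PES1 measured 196, 209 and 207 CPM and 197, 201 and 176 CPM, and its groups overlapped (−0.09 ± 0.05, adjusted p = 0.117). It was called lower under library size alone (−0.20, adjusted p = 0.00234) and upper-quartile scaling (−0.16, adjusted p = 0.0131). BOP1 was the least abundant member, at 4.35, 7.29 and 7.17 CPM and 4.46, 6.36 and 5.44 CPM, where a log2 fold change of −0.20 had an SE of 0.17. Without siControl replicate 1, its lowest siControl value, BOP1 was called at −0.39 (adjusted p = 0.0155). GNL3 (nucleostemin), a nucleolar GTP-binding protein, was at −0.07 ± 0.05 and overlaps GLT8D1 on the other strand. It was called lower under library size alone (−0.18, adjusted p = 0.00153) and upper-quartile scaling (−0.13, adjusted p = 0.0126). PPAN, a processing factor, was at −0.06 ± 0.08 and turned to 0.21 with GC and length offsets (adjusted p = 0.00362), and it shares its span and strand with the read-through gene PPAN-P2RY11, between which the counting could split reads.

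The 3 rRNA-modifying enzymes split 2 to 1, beside 37.1% higher and 38.5% lower over all genes tested. NOP2, which methylates cytosine in 28S rRNA, measured 159.6, 167 and 165 CPM in the siControl samples and 208, 210.5 and 208 CPM in the siKMT9α#1 samples, with a log2 fold change of 0.35 ± 0.05 (SE, adjusted p = 1.08e-06). NAT10, which acetylates cytosine in 18S rRNA, measured 127, 124 and 127 CPM and 138, 143 and 146 CPM and had a log2 fold change of 0.18 ± 0.05 (SE, adjusted p = 0.00198), which was lost with GC and length offsets (0.08, adjusted p = 0.101) and under library size alone (0.07, adjusted p = 0.164). DIMT1, which dimethylates adenosines of 18S rRNA, fell from 47.1, 48.2 and 45.8 CPM to 33.1, 29.5 and 32 CPM, a log2 fold change of −0.57 ± 0.06 (SE, adjusted p = 7.73e-08). Of the others, DDX21, a helicase of nucleolar transcription, measured 866, 866 and 841 CPM and 899, 921 and 881 CPM. The groups of DDX21 did not overlap, yet the log2 fold change of 0.07 ± 0.05 was not called (adjusted p = 0.173).

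CNBP (chr3:128886658-128902810), which is known for promoting translation of mRNAs for ribosomal proteins, fell most of the 50. It measured 538, 544 and 561 CPM in the siControl samples and 217, 217 and 209 CPM in the siKMT9α#1 samples, a fold change of 0.391 and a log2 fold change of −1.35 ± 0.05 (SE, adjusted p = 3.88e-15). The 3 siKMT9α#1 samples were close to each other and far below every siControl sample. CNBP has 6 transcripts in the table, and all of them gave the same log2 fold change of −1.35 to 2 decimals. Of the 50 members 16 have more than 1 transcript in the table, and none of the 16 had transcripts of both signs, but transcripts of a gene share most reads in counts of this kind.

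**Figure D3:**
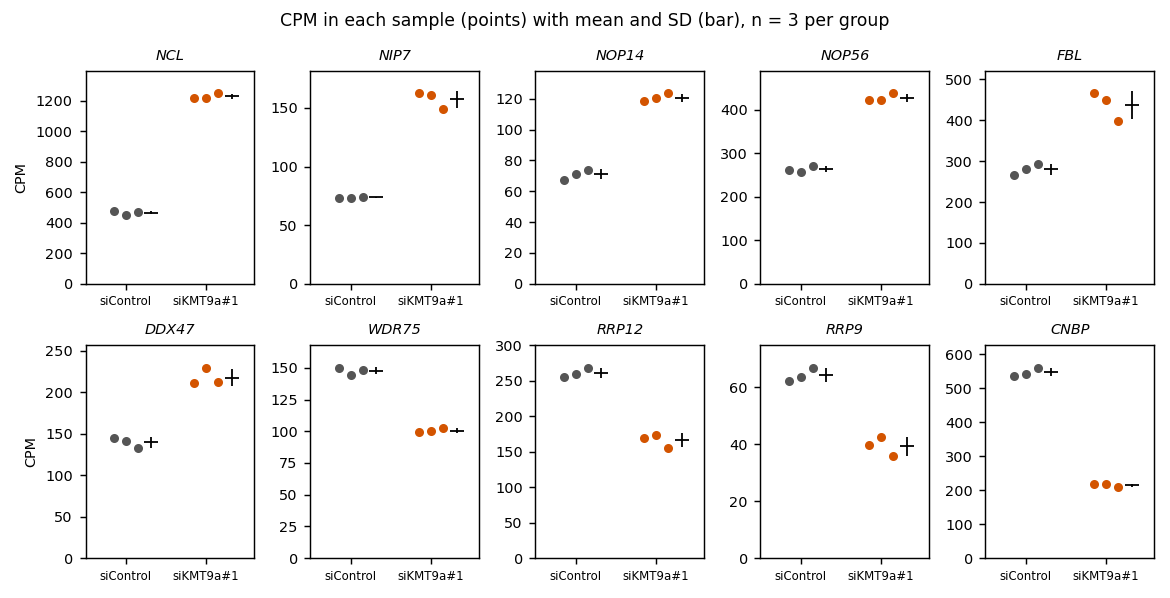
CPM (vertical axis, from 0) of the 10 members past the study's threshold, with 1 point per sample and, beside each group, the mean and SD (n = 3). In each of the 10 panels the 3 siControl points and the 3 siKMT9α#1 points do not overlap.

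Levels were compared between genes per length, as CPM per kb of transcript. In the siControl samples NPM1 was highest at 767 CPM per kb, followed by NOP10 at 461, FBL at 244 and DDX21 at 208 CPM per kb. NOP58, DKC1, NCL and EBNA1BP2 came next at 175, 175, 173 and 172 CPM per kb, and these 4 neighbours differed by less than the SD between the siControl samples of NOP58. The lowest were BOP1 at 2.68, RRP1 at 10.02 and UTP20 at 10.8 CPM per kb. Members that changed by more than 2-fold also moved in rank. NCL moved from rank 7 to rank 3 at 456 CPM per kb, and NIP7 from rank 36 to rank 19. CNBP moved from rank 9 to rank 21, at 63.5 CPM per kb.

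**Figure D4:**
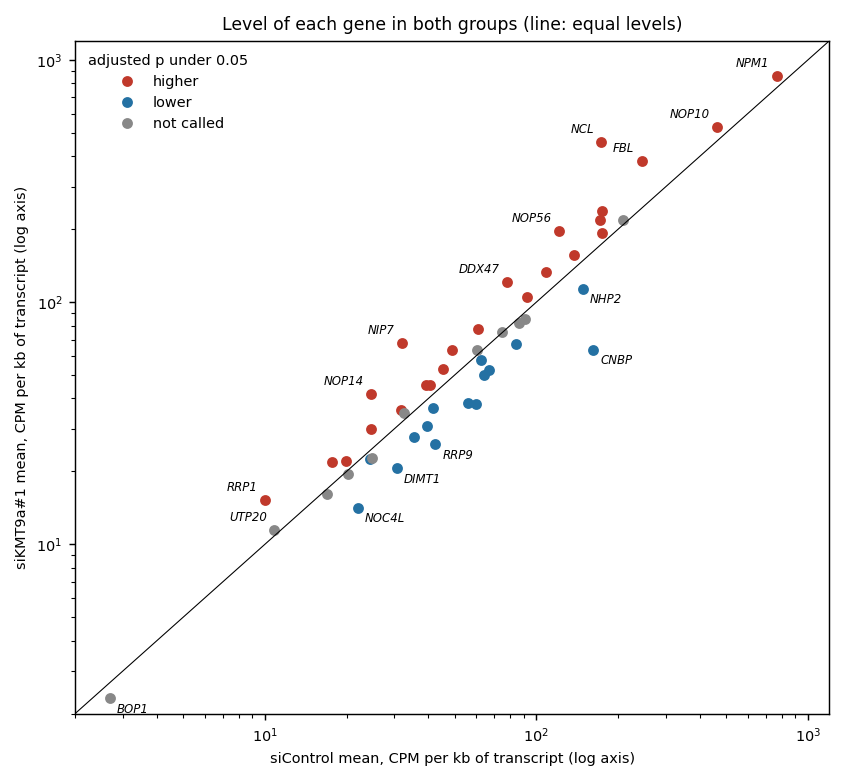
Mean level of each of the 50 genes in the siControl samples (horizontal axis) and in the siKMT9α#1 samples (vertical axis), both in CPM per kb of transcript on log axes, with the line of equal levels. Most genes lie near the line, NCL and NIP7 lie above it, and CNBP lies below it.

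E-boxes were common in the promoters of the members. RefSeq promoter entries of 300 bases (250 before and 50 from the start site onward, GRCh38.p14) were matched for 43 of the 50 members, and DDX52, NOLC1, RRS1, NOP58, RRP12, DDX18 and BOP1 had no entry. The E-box CACGTG, which reads the same on both strands, was found in 17 of the 43 (39.5%), against 10.1% of 10314 promoters of genes tested and 7.43% of 27305 promoters in all. In 15 of these 17 members (88.2%) an E-box started between 20 bases before and 36 bases after the start site, as in the 6 windows shown for FBL, NOP14, NOP10, NAT10, WDR43 and RRP9. Among the 1045 genes tested that hold an E-box, 21.9% have one in that window, which was chosen after the members' positions were seen.

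Holding an E-box did not go with 1 direction. Of the 17 members with the motif 9 were higher, 3 were lower and 5 were not called, with a median log2 fold change of 0.14. Of the 26 without it 11 were higher, 11 were lower and 4 were not called, with a median of −0.00. Of the 1045 genes tested with the motif 380 were higher and 422 were lower, with a median of −0.04. NOP14 and FBL were the E-box members that rose most, and RRP9 the 1 that fell most, while NCL, NIP7 and CNBP, the members that changed by more than 2-fold, held none.

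A further 4 motifs were searched on both strands. The core of the ETS motif, CCGGAAG or its complement, was in 27.9% of the 43 member promoters, against 18.6% of promoters of genes tested and 10.7% of all. The motif TCTCGCGA, known from ZBTB33 targets, was in 9.30%, against 2.35% and 1.19%, and NOP14 is 1 of the members with it. The core of the YY1 motif, AAGATGG, was in 14.0%, against 7.42% and 6.06%. Part of the NRF1 motif, GCATGCGC, was in 6.98%, against 5.39% and 3.27%. A match is a run of letters in the window and no evidence of binding.

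MYC itself rose. It measured 294, 303 and 296 CPM in the siControl samples and 585, 579 and 569 CPM in the siKMT9α#1 samples, with a log2 fold change of 0.96 ± 0.05 (SE, adjusted p = 3.75e-13). Of the 6 members of the MYC and MAX family that could be tested 2 were higher and 3 were lower, and MYCN was at 0. Over all genes tested the shares were 37.1% and 38.5%. The other higher one was MXD1, at a log2 fold change of 0.80 ± 0.08 (SE, adjusted p = 2.75e-08). MYCL at −1.28 ± 0.20 (adjusted p = 1.20e-05), MXI1 at −0.35 ± 0.07 (adjusted p = 9.06e-05) and MAX were lower, and MNT was not called. MAX, the partner of MYC, changed by −0.14 ± 0.05 (adjusted p = 0.0165). Whether the rise of MYC had a part in the values of the 50 genes was not tested.

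Of the members 8 (16%) have genes of small nucleolar RNAs (snoRNAs) inside their span in the count table, against 1.46% of genes tested. Whether these lie in introns or on the same strand was not checked. The 8 members are NOP56 with 5 snoRNA genes, NOP58, NCL and GNL3 with 3 each, and DKC1, WDR43, TSR1 and PPAN with 2 each. NCL hosts SNORD20, SNORD82 and SNORA75. Of these hosts NCL, NOP56, DKC1 and NOP58 were higher, TSR1 was lower, and WDR43, GNL3 and PPAN were not called. Over all genes tested 37.1% were higher and 38.5% were lower. The snoRNAs were not analysed here.

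The members that fell had the highest median GC content. The median GC content of the transcript was 47.9% for the 24 members that were higher, 56.3% for the 15 that were lower and 43.1% for the 11 not called. Lower members were also shorter, with a median length of 1699 bases, against 2421 bases for the higher ones. Across the 50 members, which share the same 6 libraries, the log2 fold change had a Pearson's r of −0.25 and a Spearman's rho of −0.30 with GC content, and across all genes tested r was −0.07. With offsets for GC content and length, r was −0.11 across the members, 25 were higher and 12 were lower, and the median log2 fold change was 0.13. Over all genes tested these offsets gave 5430 higher and 5115 lower, with a median of 0.02. The sign turned for 8 members, namely UTP20, HEATR1, BYSL, NOB1, BOP1, PES1, GNL3 and PPAN. The log2 fold changes of NCL, NIP7 and CNBP became 1.42, 1.21 and −1.39. The part of GC content in the values was not tested beyond these offsets.

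**Figure D5:**
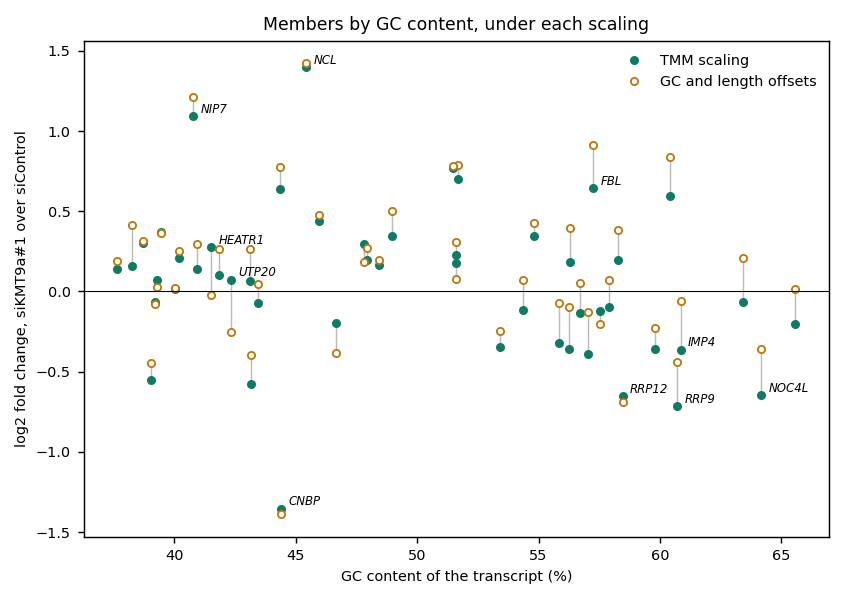
Log2 fold change (vertical axis) against GC content of the transcript in percent (horizontal axis) for the 50 members, under the scaling used in the text (filled points) and with offsets for GC content and length (open points), with a line between the values of each gene. NCL and CNBP move by less than 0.05 and NIP7 from 1.09 to 1.21, while UTP20 and HEATR1 move down across 0 and most members of high GC content move up.

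An siRNA can also act on other mRNAs that pair with bases 2 to 8 of its guide strand. The complement of these bases, ACATTCA, was looked for in the annotated 3′ untranslated regions, a search added after the values were seen. It was found in 2 of the 50 members (4%), against 12.0% of 12257 genes tested, namely WDR12, which fell, and DDX52, which was not called. NCL, NIP7 and CNBP held none. A longer region has more places for a match, and the 2 shares do not take length into account. Among the members the regions ran from 65 bases (BOP1) to 6599 bases (WDR12), and that of DDX52 had 2759 bases.

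Other genes of the pathway also changed in both directions. Of 114 other factors of ribosome biogenesis, all found and tested, 37 (32.5%) were higher, 50 (43.9%) were lower and 27 were not called, with a median log2 fold change of −0.05, beside 37.1% and 38.5% of all genes tested. With GC and length offsets the split was 46 and 47 and the median 0.01, beside 5430 higher, 5115 lower and a median of 0.02 over all genes. Library size alone gave 25 higher and 60 lower, beside 4359 higher and 6212 lower of all 13877 genes. Upper-quartile scaling gave 26 and 56, and the shares of all genes under it are not given here. By role, 11 of 29 other SSU processome factors were higher and 11 lower, and 17 of 47 other 60S factors were higher and 17 lower. Of 7 other late 40S factors 1 was higher and 5 were lower, beside 0 and 3 of the 5 members with that role. With GC and length offsets these splits were 2 and 3 of the 7, and 1 and 2 of the 5. Of the 17 genes of the exosome and of rRNA 3′ end trimming 5 were higher and 8 were lower. The largest rises were those of the helicase DDX55 (log2 fold change 1.40 ± 0.05 (SE, adjusted p = 2.51e-14)), the exonuclease ERI1 (1.00 ± 0.05) and LSG1, a GTPase of cytoplasmic 60S maturation (0.88 ± 0.05).

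Of the 114 genes 6 fell by more than 2-fold, and the 3 that fell most are given with their values. EXOSC5, a core subunit of the RNA exosome, measured 61.5, 63.5 and 65.1 CPM in the siControl samples and 11.2, 10.01 and 10.3 CPM in the siKMT9α#1 samples, a log2 fold change of −2.60 ± 0.07 (SE, adjusted p = 1.47e-16). ZNHIT3, an assembly factor of box C/D snoRNPs, went from 72.4, 74.6 and 68.2 CPM to 18.4, 19.3 and 16.7 CPM, a log2 fold change of −1.99 ± 0.07 (SE, adjusted p = 3.18e-15). SNU13, the core protein named above, went from 172, 188 and 186 CPM to 69.9, 70.2 and 60.8 CPM. Its log2 fold change of −1.45 ± 0.06 (SE, adjusted p = 4.47e-14) was opposite in sign to those of FBL, NOP56 and NOP58, with which it shares the particle. Of 5 other rRNA-modifying enzymes 4 were lower and 0 were higher, with a median log2 fold change of −0.42, and GC and length offsets gave 3 lower, 1 higher and a median of −0.25. Over all genes tested 38.5% were lower, and with these offsets 5115 genes were lower and 5430 higher. The 5 enzymes include BUD23 (listed as WBSCR22) and METTL5, methyltransferases of 18S rRNA that depend on TRMT112. Their log2 fold changes were −0.42 ± 0.05 (SE, adjusted p = 8.36e-08) and −0.70 ± 0.05 (SE, adjusted p = 4.43e-10).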

How the data were processed

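Total RNA of 6 A549 samples (3 siControl, 3 siKMT9α#1) was sequenced on the Illumina platform. Per the labels and the study's methods, the authors aligned reads with STAR to hg19 and counted them per RefSeq transcript with HOMER. The deposited values are estimated counts, as 36.4% were not whole, with no normalization, and the counting options were not given in the sources used here. The deposited fold changes, p-values and adjusted p-values of the authors' own comparison were not used.

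Of 38767 rows, 1182 without a symbol and counts were left out, and 37585 transcripts of 23180 symbols were used. Counts of the transcript with the largest sum per gene were rounded and filtered with filterByExpr, leaving 13877 genes. They were scaled by TMM (trimmed mean of M values, factors 1.03 to 1.04 for siControl and 0.96 for siKMT9α#1) and tested, two-sided, with edgeR 4.0.16 (quasi-likelihood, R 4.3.3) on group alone, with Benjamini-Hochberg adjustment. CPM values are counts divided by the library total times this factor and scaled to 1e+06. The script was tested on simulated data. The 6 library totals per transcript used were 18238030, 15551783 and 18568637 for siControl and 13740101, 14201985 and 19832399 for siKMT9α#1. Alternatives were RLE, upper-quartile and library-size scaling, no filter, 10 counts in every sample, every or the longest transcript, a likelihood-ratio test, DESeq2 1.42.0, replicate blocks, offsets for GC content and length (mgcv 1.9.3), and leaving out each sample. Nothing in the sources used here says that replicates came from separate cultures beyond the word biological, so p-values measure the spread between these samples.

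GC content, 3′ untranslated regions and strands came from GENCODE on GRCh37 (22479 symbols matched, 1233 of them by accession and 153 by synonym), and promoters from RefSeq. Hosts of snoRNAs were found from the spans in the count table. GC content was known for 98.8% of genes tested and for all 50 members. The orientation of promoters was checked against transcripts, and 38 of 43 member entries matched forward and 0 in reverse. The members and lists were chosen with earlier results of these data known. All 50 members were named. Of other genes the rule named N6AMT1, TRMT112, MYC, BUD23, METTL5, the 3 called pathway genes with the largest rise and the 3 with the largest fall whose groups did not overlap, and genes that overlap a member. Named beyond that rule were the other genes of the MYC and MAX family, some cell type markers and the snoRNA genes of NCL.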

Additional observations from a re-analysis of the deposited data

How the results depend on the processing

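Of 900 values of the 50 members under 18 alternatives, 821 kept their direction and their side of the threshold, 40 lost a call, 16 gained one and 23 changed sign. NCL, NIP7 and CNBP kept direction and call under each of the 18.

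Library size alone gave 15 members higher and a median log2 fold change of −0.017, beside 4359 genes and −0.119 over all 13877 genes tested. Upper-quartile scaling gave the members a median of 0.027. With GC and length offsets the members' median was 0.13, beside 0.017 over all genes, and it was also 0.13 with the replicate block added. In both settings 14 members passed the study's threshold upward. That count was 12 by the likelihood-ratio test and with no filter, where 10 passed downward, and 11 by DESeq2. Shares of all genes past that threshold under these settings are not given here.

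Replicate numbers did not pair the samples, since the deviations of same-numbered samples from their group means correlated at −0.08, 0.02 and −0.08. The replicate block left 1 member past the study's threshold downward, moved the count over all genes from 10492 to 10229 and lost the calls of NOL6 and NOB1.

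Leaving out 1 sample at a time gave medians of 0.086 to 0.13, 23 to 25 members higher and 13 to 15 lower, with 4 to 8 and 3 to 6 past the study's threshold. The median was 0.13 without siControl replicate 1. WDR43 ran from −0.00090 without siKMT9α#1 replicate 3 to 0.036 without siControl replicate 1.

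Signs changed under library size alone for GAR1 (−0.042), UTP20 (−0.031), WDR43 (−0.092), LTV1 (−0.0033) and DDX21 (−0.035), and under upper-quartile scaling for WDR43 (−0.048). With GC and length offsets, without and with the replicate block, they changed for UTP20 (−0.25 in both), HEATR1 (−0.024 in both), BYSL (0.053 and 0.055), NOB1 (0.069 in both), BOP1 (0.017 and 0.0069), PES1 (0.074 and 0.073), GNL3 (0.049 in both) and PPAN (0.21 in both). The cause was not tested. Depth limits BOP1, with means of 6.27 and 5.42 CPM, more than the other members.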
